A study of Homo sapiens with 30 samples.

Results

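The 46 genes described here encode regulators of pre-mRNA splicing: 13 SR proteins, 6 kinases that phosphorylate them, 4 SR-related proteins of nuclear speckles, 3 LUC7-like proteins, 4 RBM proteins, the 2 U2AF subunits, 3 DEAD-box helicases and 11 heterogeneous nuclear ribonucleoproteins (hnRNPs). They were taken by name from 60675 gene rows, and the list was chosen with earlier results of these data known. Counts of members set beside shares of all tested genes are therefore description and not a test of the list. All 46 matched a row by Ensembl identifier and all 46 passed the filter on low counts, among 16083 genes tested. Expression was measured by RNA sequencing in HepG2, a human liver cancer cell line, in 30 libraries of 13 groups. The extract groups received ethanol extracts of the herbal formulas Sibjeondaebo-tang, Palmul-tang, Samul-tang or Sagunja-tang for 24 h at 20 µg/mL (low), 100 µg/mL (medium) or 500 µg/mL (high), and the vehicle group received 0.1% DMSO for 24 h. The sample labels give no DMSO content for the extract libraries. If it differed from that of vehicle, this cannot be told apart from an effect of an extract against vehicle. There were 3 libraries for each dose of Sibjeondaebo-tang and Palmul-tang, 2 for each dose of Samul-tang, 1 for each dose of Sagunja-tang and 3 for vehicle. By tradition Palmul-tang combines Samul-tang with Sagunja-tang, and Sibjeondaebo-tang is Palmul-tang with cinnamon and astragalus. The high-dose comparison of Sibjeondaebo-tang with Palmul-tang sets the larger formula beside the smaller one at an equal 500 µg/mL of extract. The herbs they share may then differ in amount, and this cannot be told apart from an effect of the added herbs. HepG2 is a single tumour-derived line, and nothing in the labels tells whether replicates were grown separately, so the p-values reflect the spread among these libraries alone, which may be technical.

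SR proteins carry an RNA-binding domain and a tail rich in arginine and serine, bind enhancer sequences in exons and help the spliceosome to recognise nearby splice sites. CLK and SRPK kinases phosphorylate that tail and so set where SR proteins lie in the nucleus and when they act, while many hnRNPs bind silencer sequences and hold splice sites back. Many of these genes control their own level: when the protein is abundant it causes inclusion of a poison exon, which holds a premature stop codon, or retention of an intron, and the resulting RNA is degraded or kept in the nucleus. In liver cells SR proteins and hnRNPs shape the isoforms of metabolic and growth-control genes.

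Library totals lay between 21570416 and 37707232 expected counts, and levels are given as CPM, counts relative to the library's total scaled with TMM factors. All 10 hepatocyte markers were expressed in every library, with ALB from 8389 to 12001 CPM and AFP from 13149 to 17535 CPM. EMCN and MS4A1, markers of endothelial and B cells, had no count in any library. Of 5 endothelial markers, 4 were below 1 CPM in every library, and PECAM1 had 1.33 to 2.35 CPM. Of 5 immune markers, 3 were below 1 CPM in every library. The others were expressed, CD68 at 48.7 to 82.0 CPM and CD14 at 2.36 to 4.00 CPM. COL1A1, a fibroblast collagen, lay between 0.133 and 8.29 CPM, with a median of 0.242 CPM. The highest value came from Sibjeondaebo-tang low replicate 3, whose fibroblast marker sum of 95.9 CPM was also the highest, and every other library was at or below 0.615 CPM. The fibroblast markers COL1A2, COL3A1 and DCN reached at most 6.96, 4.30 and 1.90 CPM and had no count in 28, 16 and 29 libraries. Without Sibjeondaebo-tang low replicate 3, Sibjeondaebo-tang high against low gave 2 members higher and 17 lower, and the difference between dose responses described below gave 5 members. The fibroblast marker list summed to 74.3 to 80.1 CPM in Sibjeondaebo-tang high and 59.7 to 70.1 CPM in Palmul-tang high, most of it from ACTA2, and its part in the results below was not tested. Mitochondrially encoded genes took 17.2% to 19.4% of counts in Sibjeondaebo-tang high, 14.9% to 16.9% in Palmul-tang high and 12.4% to 14.5% in vehicle. The sample titles put all 30 libraries in a single batch, E. The sample names carry 3 prefixes whose meaning the labels do not give, one of vehicle, one of Samul-tang with Sagunja-tang and one of Sibjeondaebo-tang with Palmul-tang. If a prefix marks a separate handling, its effect and that of an extract against vehicle cannot be told apart. Comparisons between doses of a formula, and of Sibjeondaebo-tang with Palmul-tang, lie within one prefix.

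Across the 10 groups with more than 1 library, vehicle held the lowest mean of 19 of the 46 genes and Sibjeondaebo-tang high held the lowest mean of 15. The shares of all tested genes with their lowest mean in either group are not given here, so these counts have no background beside them. The ratio of the highest to the lowest group mean was smallest for PTBP1, a splicing repressor, at 1.08, and largest for RBM6, an RNA-binding splicing factor, at 1.60. PNISR followed RBM6 at 1.55, then RBM39 at 1.47, SRSF5 at 1.46 and CLK3 at 1.41. RBM6, PNISR, RBM39 and SRSF5 had their lowest mean in Sibjeondaebo-tang high, whereas CLK3 had its lowest in vehicle and its highest in Palmul-tang high. With median-ratio factors in place of TMM, no group mean of a member moved by more than 1.07%.

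**Figure D1:**
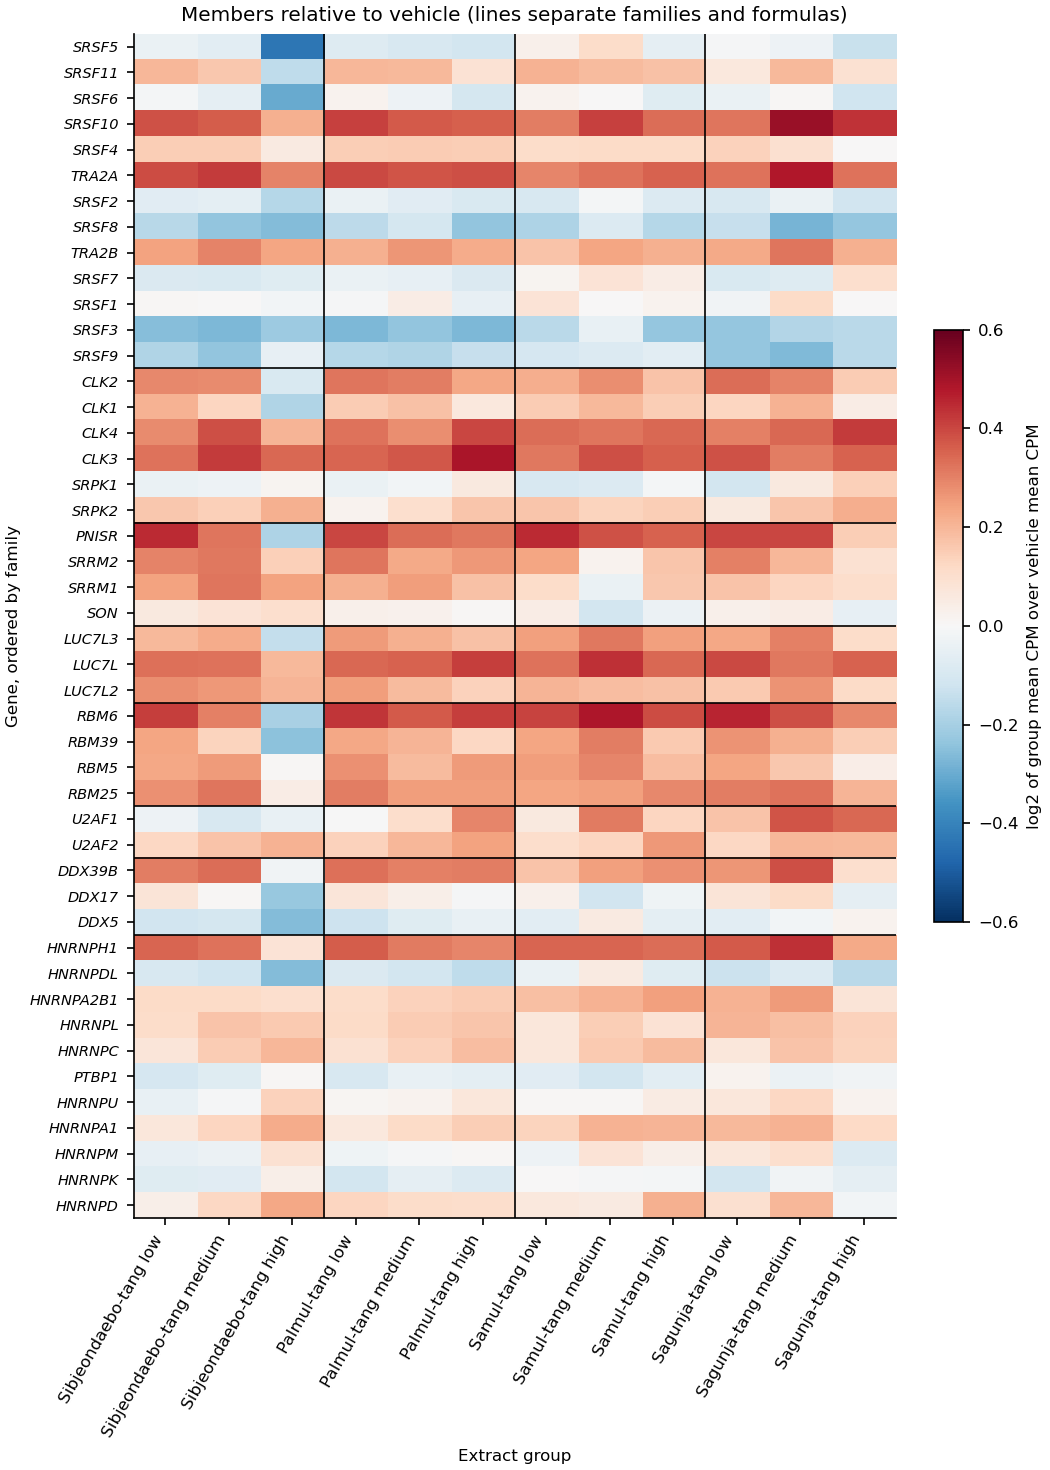
Heat map of the log2 ratio of each group mean CPM to the vehicle mean CPM for the 46 genes (rows, grouped by family) in the 12 extract groups (columns, low to high dose within each formula; Sagunja-tang columns are single libraries). The RBM6, PNISR, RBM39, CLK1, CLK2 and LUC7L3 rows are red, above vehicle, in every column except that of Sibjeondaebo-tang high, where they are blue, below vehicle, while CLK3, CLK4, LUC7L, SRSF10 and TRA2A are red in every column.

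At 500 µg/mL, 17 of the 46 genes were lower in Sibjeondaebo-tang than in Palmul-tang and none was higher, in edgeR's quasi-likelihood test with Benjamini-Hochberg adjustment over all genes and a threshold of 0.05. Of these, U2AF1 was not called once the row of a near-identical copy was added (log2 fold change -0.10, adjusted p = 0.290), which left 16. The largest decreases among the others were in RBM6, PNISR, RBM39, DDX39B and SRSF5, with log2 fold changes between -0.61 and -0.33. With its readthrough row added, DDX39B had a log2 fold change of -0.25 and kept its call. Among all tested genes 6.47% were called, 1.75% higher and 4.72% lower. The median log2 fold change was -0.09 over the 46 genes and 0.03 over all tested genes. The 17 comprised 3 of 13 SR proteins, 2 of 6 kinases, 1 of 4 SR-related speckle proteins, 2 of 3 LUC7-like proteins, 4 of 4 RBM proteins, 1 of 2 U2AF subunits, 3 of 3 DEAD-box helicases and 1 of 11 hnRNPs. The balance of all calls moved with the scaling: 282 genes were higher and 759 lower with TMM, 148 and 839 with median-ratio factors, and 140 and 871 with mitochondrially encoded genes left out of the totals. The members' count was 17 lower with median-ratio factors and 18 lower without mitochondrially encoded genes, with none higher in either. Without Sibjeondaebo-tang high replicate 3, 545 genes and 14 members were called, and without Palmul-tang high replicate 1, 675 genes and 16 members.

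For 21 of the 46 genes every Sibjeondaebo-tang high library lay below every Palmul-tang high library, against 11.4% of all tested genes. For 2 genes, SON and HNRNPK, every Sibjeondaebo-tang high library lay above, against 14.3% of all tested genes. Set against all 24 other extract libraries, 16 members had their 3 lowest values in Sibjeondaebo-tang high, where 3.83% of tested genes did. Against all 27 other libraries, vehicle included, this held for 8 members and for 3.10% of tested genes, and the 8 were SRSF5, SRSF6, SRSF11, PNISR, RBM6, RBM39, HNRNPDL and DDX5. All 46 genes together took 1.13% to 1.20% of counts in Sibjeondaebo-tang high and 1.25% to 1.35% in Palmul-tang high. As summed CPM with TMM factors the groups overlapped, at 12057 to 12708 CPM in Sibjeondaebo-tang high and 12491 to 13451 CPM in Palmul-tang high.

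**Figure D2:**
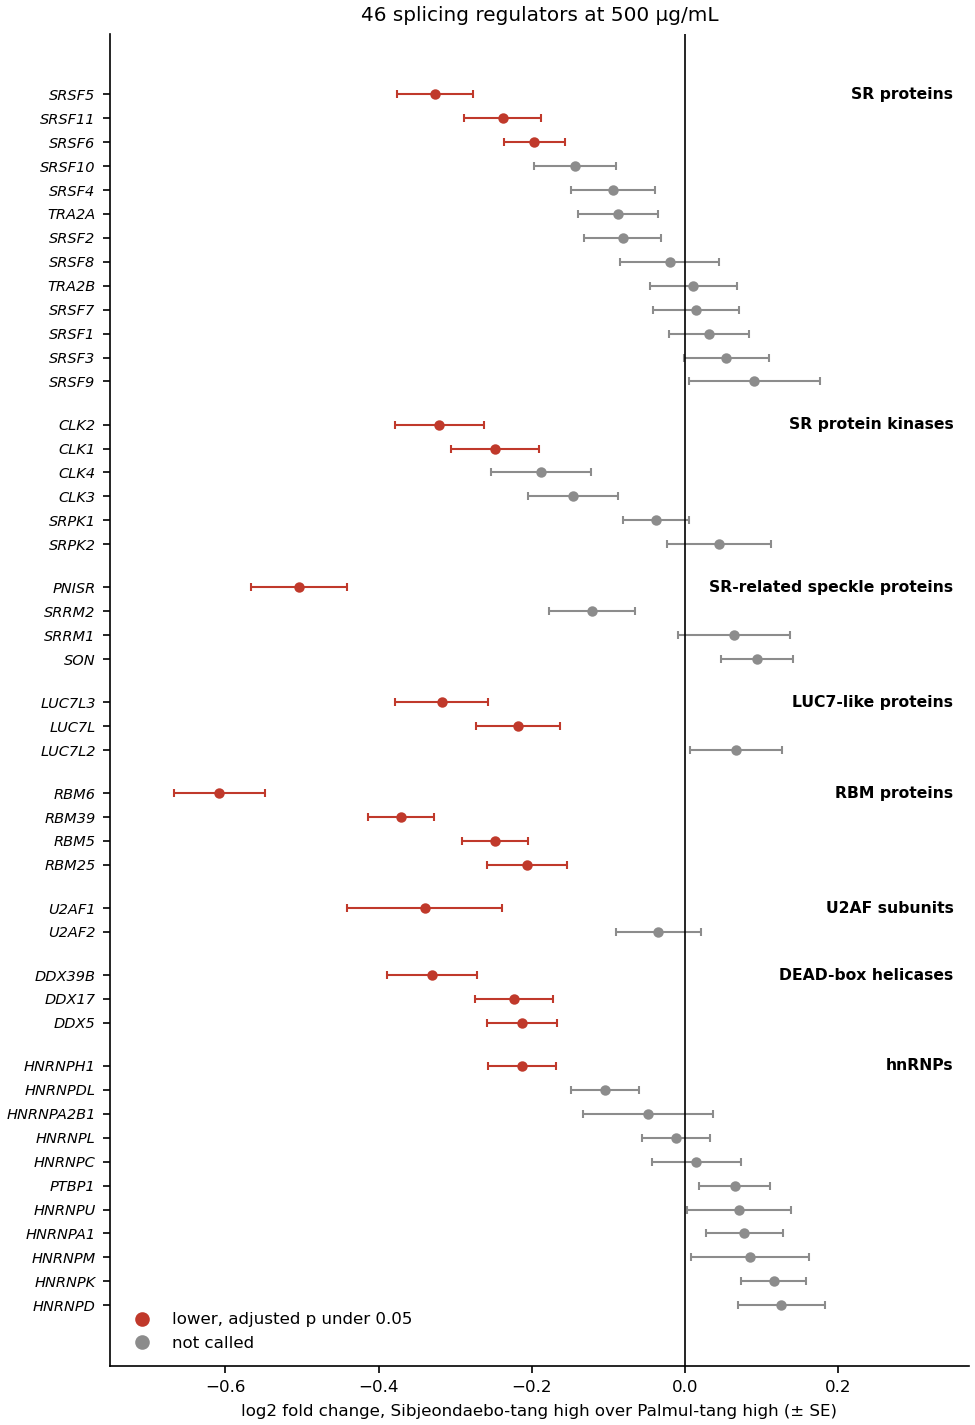
Log2 fold change of Sibjeondaebo-tang high over Palmul-tang high (x axis, points with SE, n = 3 libraries each) for the 46 genes, grouped by family and ordered within it. Red points passed an adjusted p of 0.05; all 17 lie left of 0, all RBM proteins and DEAD-box helicases are among them, and 7 of the 11 hnRNPs lie right of 0 without passing.

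Among the SR proteins, SRSF5, SRSF6 and SRSF11 were lower with Sibjeondaebo-tang and the other 10 did not pass the test. SRSF5, an SR protein that binds exonic enhancers, had 145, 144 and 138 CPM in Sibjeondaebo-tang high libraries, against 174, 188 and 173 CPM in Palmul-tang high libraries (log2 fold change -0.33, SE 0.049, adjusted p = 2.99e-05). SRSF6, a close relative with a long serine-arginine tail, had 185, 193 and 188 CPM in Sibjeondaebo-tang high libraries, against 208, 219 and 222 CPM in Palmul-tang high libraries (log2 fold change -0.20, SE 0.040, adjusted p = 0.00135). SRSF11, an SR-related protein that contacts U2AF, had 139, 134 and 126 CPM in Sibjeondaebo-tang high libraries, against 150.5, 155 and 165 CPM in Palmul-tang high libraries (log2 fold change -0.24, SE 0.050, adjusted p = 0.00182). In each of these 3 genes the groups did not overlap, and the spread within a group was smaller than the gap between groups for SRSF5 and SRSF6. SRSF10, a splicing regulator governed by its phosphorylation, also showed separated groups, with 160.4, 157 and 159.6 CPM in Sibjeondaebo-tang high libraries, against 167, 167 and 193 CPM in Palmul-tang high libraries, but its adjusted p was 0.106. The canonical members SRSF1, SRSF2, SRSF3, SRSF4 and SRSF7 had log2 fold changes between -0.09 and 0.05, with adjusted p-values of 0.353 or more. TRA2A and TRA2B, which bind purine-rich exonic enhancers, had log2 fold changes of -0.09 and 0.01, with adjusted p-values of 0.366 and 0.950.

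The counts are per gene and so pool productive RNAs with any poison-exon RNAs. Of the 46 genes, 45 (97.8%) have at least 1 transcript annotated for nonsense-mediated decay in GENCODE 29, against 43.1% of the 12821 tested protein-coding genes. A count of such a gene can change through its productive RNA or through RNA marked for decay. CLK2 has no such transcript. A transcript marked for decay need not hold a poison exon. No internal exon with the premature stop, apart from protein-coding exons, was found for RBM6, PNISR, SRSF5, DDX39B or CLK1. The sequences below show what such alternative exons look like in 3 genes that were lower in Sibjeondaebo-tang high (SRSF6, LUC7L3 and DDX17) and in 2 SR protein genes that did not pass the test (SRSF3 and SRSF7). Each runs 5′ to 3′ on the coding strand from the first base of the alternative exon through the premature stop codon, which is in capitals (GENCODE 29, GRCh38).
SRSF6, chr20:43459153-43459304, plus strand, in an exon of 268 bases: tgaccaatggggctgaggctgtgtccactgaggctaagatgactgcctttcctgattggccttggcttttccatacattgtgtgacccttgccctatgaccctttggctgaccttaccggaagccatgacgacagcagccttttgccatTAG
LUC7L3, chr17:50738141-50738163, plus strand, in an exon of 59 bases: aagaaaagaggattcttctcTAG
DDX17, chr22:38489412-38489458, minus strand, in an exon of 231 bases: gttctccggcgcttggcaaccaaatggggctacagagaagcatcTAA
SRSF3, chr6:36599821-36599854, plus strand, in an exon of 456 bases: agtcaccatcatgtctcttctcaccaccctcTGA
SRSF7, chr2:38749319-38749346, minus strand, in an exon of 449 bases: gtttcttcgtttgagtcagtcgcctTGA
The stop codon came 152 bases into the exon of SRSF6, 23 into that of LUC7L3, 47 into that of DDX17, 34 into that of SRSF3 and 28 into that of SRSF7. How much of each gene's count came from these exons was not tested, since the table holds no counts per exon.

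Among the kinases of SR proteins, CLK1 and CLK2 were lower with Sibjeondaebo-tang, while CLK3, CLK4, SRPK1 and SRPK2 did not pass the test. The CLK kinases act in the nucleus and release SR proteins from speckles, and CLK1 is known for a retained intron that keeps its RNA nuclear. CLK2 had 31.3, 33.2 and 30.7 CPM in Sibjeondaebo-tang high libraries, against 38.5, 40.5 and 40.1 CPM in Palmul-tang high libraries (log2 fold change -0.32, SE 0.058, adjusted p = 3.48e-04). CLK1 had 50.9, 45.1 and 42.1 CPM in Sibjeondaebo-tang high libraries, against 52.7, 57.1 and 54.0 CPM in Palmul-tang high libraries (log2 fold change -0.25, SE 0.057, adjusted p = 0.00520). The groups did not overlap for either gene, but in CLK1 the nearest libraries were under 2 CPM apart, and its adjusted p was 0.0559 without Sibjeondaebo-tang high replicate 3. CLK4 had 19.0, 20.1 and 20.2 CPM in Sibjeondaebo-tang high libraries, against 21.7, 21.6 and 24.6 CPM in Palmul-tang high libraries, which separated the groups with an adjusted p of 0.0819. SRPK1 and SRPK2, cytoplasmic kinases that prepare SR proteins for import, had log2 fold changes of -0.04 (SE 0.043) and 0.04 (SE 0.068).

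Of the 4 SR-related speckle proteins, PNISR alone passed the test. PNISR, a serine-arginine-rich partner of pinin, had 56.0, 54.6 and 50.7 CPM in Sibjeondaebo-tang high libraries, against 73.0, 83.1 and 72.6 CPM in Palmul-tang high libraries, a ratio of 0.705 (log2 fold change -0.50, SE 0.063, adjusted p = 1.26e-06). Its lowest Palmul-tang high library lay above its highest Sibjeondaebo-tang high library by more than the spread within the Sibjeondaebo-tang high group. SRRM2, a scaffold of nuclear speckles, had 819, 808 and 821 CPM in Sibjeondaebo-tang high libraries, against 891, 938 and 833 CPM in Palmul-tang high libraries, with a log2 fold change of -0.12 and an adjusted p of 0.219. SON, the other main speckle scaffold, had 333, 345 and 349 CPM in Sibjeondaebo-tang high libraries, against 316, 323 and 323 CPM in Palmul-tang high libraries, with every Sibjeondaebo-tang high library above the Palmul-tang high libraries and an adjusted p of 0.265. SRRM1, a coactivator in the exon junction complex, had a log2 fold change of 0.06 and an adjusted p of 0.685.

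The LUC7-like proteins bind the U1 particle and bias the choice of 5′ splice site. LUC7L3 was lower, with 127, 108 and 107 CPM in Sibjeondaebo-tang high libraries, against 132, 143 and 151 CPM in Palmul-tang high libraries (log2 fold change -0.32, SE 0.061, adjusted p = 6.78e-04). LUC7L was lower too, with 32.4, 30.8 and 30.2 CPM in Sibjeondaebo-tang high libraries, against 34.5, 35.8 and 38.5 CPM in Palmul-tang high libraries (log2 fold change -0.22, SE 0.055, adjusted p = 0.0116). In LUC7L3 replicate 1 of Sibjeondaebo-tang high stood nearest to the Palmul-tang high libraries, and in neither gene did the groups overlap. LUC7L2 had 66.8, 69.8 and 72.8 CPM in Sibjeondaebo-tang high libraries, against 66.1, 71.3 and 62.4 CPM in Palmul-tang high libraries, overlapping groups with a log2 fold change of 0.07 and an adjusted p of 0.585. Part of its RNA can be counted under the readthrough gene C7orf55-LUC7L2, and with both rows summed the log2 fold change was 0.03, with an adjusted p of 0.818.

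All 4 RBM proteins were lower with Sibjeondaebo-tang. RBM6, which regulates exon inclusion, had 79.7, 69.5 and 66.6 CPM in Sibjeondaebo-tang high libraries, against 107, 107 and 115 CPM in Palmul-tang high libraries, a ratio of 0.656 (log2 fold change -0.61, SE 0.059, adjusted p = 9.74e-09). RBM39, a U2AF-related splicing factor and the protein that aryl sulfonamide drugs degrade, had 310.1, 301 and 277 CPM in Sibjeondaebo-tang high libraries, against 388, 376 and 383 CPM in Palmul-tang high libraries (log2 fold change -0.37, SE 0.043, adjusted p = 3.90e-07). RBM5, known for controlling FAS splicing, had 75.9, 72.0 and 71.1 CPM in Sibjeondaebo-tang high libraries, against 83.0, 88.3 and 88.9 CPM in Palmul-tang high libraries (log2 fold change -0.25, SE 0.043, adjusted p = 2.11e-04). The groups stood well apart in all 3 genes, and RBM6 had the smallest adjusted p of the 46. RBM25, which binds U1 and regulates BCL2L1 splicing, had 168, 149.9 and 150.5 CPM in Sibjeondaebo-tang high libraries, against 170.2, 187 and 184 CPM in Palmul-tang high libraries (log2 fold change -0.21, SE 0.052, adjusted p = 0.0117), with the closest libraries under 3 CPM apart. Its adjusted p was 0.0775 without Sibjeondaebo-tang high replicate 2 and 0.0642 without replicate 3. RBM6 (chr3:49940007-50100045) and RBM5 (chr3:50088908-50119021, both plus strand, GRCh38) overlap, so some reads could be assigned to either.

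U2AF1 and U2AF2 form the dimer that recognises the 3′ splice site. U2AF1 had 92.5, 78.3 and 78.4 CPM in Sibjeondaebo-tang high libraries, against 104, 98.7 and 113 CPM in Palmul-tang high libraries (log2 fold change -0.34, SE 0.10, adjusted p = 0.0497). The call did not hold when reads of U2AF1L5 were added, a near-identical copy annotated elsewhere on chromosome 21. The copy had 30.6, 39.4 and 36.8 CPM in Sibjeondaebo-tang high libraries, against 20.3, 25.2 and 21.5 CPM in Palmul-tang high libraries, so its direction was opposite to that of U2AF1. Summed, the rows had 123, 118 and 115 CPM in Sibjeondaebo-tang high libraries, against 124, 124 and 135 CPM in Palmul-tang high libraries, with a log2 fold change of -0.10, an SE of 0.054 and an adjusted p of 0.290. The U2AF1 call also ended in 5 of the 6 fits that each left out 1 library, with adjusted p-values up to 0.178. U2AF2 had 173, 171 and 183 CPM in Sibjeondaebo-tang high libraries, against 173, 192 and 173 CPM in Palmul-tang high libraries, with a log2 fold change of -0.03 and an adjusted p of 0.790.

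The 3 DEAD-box helicases were all lower with Sibjeondaebo-tang. DDX39B, a helicase of spliceosome assembly and mRNA export, had 348, 327 and 321 CPM in Sibjeondaebo-tang high libraries, against 385, 436 and 432 CPM in Palmul-tang high libraries (log2 fold change -0.33, SE 0.059, adjusted p = 3.04e-04). DDX5 had 406, 422 and 416 CPM in Sibjeondaebo-tang high libraries, against 473, 465 and 505 CPM in Palmul-tang high libraries (log2 fold change -0.21, SE 0.046, adjusted p = 0.00240), and DDX17, its paralog, had 290.0, 282 and 274 CPM in Sibjeondaebo-tang high libraries, against 322, 317 and 349 CPM in Palmul-tang high libraries (log2 fold change -0.22, SE 0.051, adjusted p = 0.00492). Both are helicases that remodel RNA in splicing and also act as transcription coactivators. None of the 3 genes had overlapping groups. With the row of the readthrough gene ATP6V1G2-DDX39B added, DDX39B had 403, 388 and 370.2 CPM in Sibjeondaebo-tang high libraries, against 455, 464 and 466 CPM in Palmul-tang high libraries (log2 fold change -0.25, SE 0.047, adjusted p = 4.01e-04).

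Among the hnRNPs, HNRNPH1 was lower and the other 10 did not pass the test, and the family's median log2 fold change was 0.06. HNRNPH1, which binds runs of guanines, had 583, 529 and 526 CPM in Sibjeondaebo-tang high libraries, against 609, 624 and 667 CPM in Palmul-tang high libraries (log2 fold change -0.21, SE 0.044, adjusted p = 0.00166). HNRNPDL, a relative of HNRNPD, had 259, 256 and 259 CPM in Sibjeondaebo-tang high libraries, against 267, 279.9 and 285 CPM in Palmul-tang high libraries, lower in every library but with an adjusted p of 0.165. HNRNPK, a binder of C-rich RNA, had 575, 605 and 616 CPM in Sibjeondaebo-tang high libraries, against 555, 533 and 570.3 CPM in Palmul-tang high libraries, higher in every library with an adjusted p of 0.102. HNRNPA1, PTBP1, HNRNPC, HNRNPD, HNRNPL, HNRNPM and HNRNPU had log2 fold changes between -0.01 and 0.13. HNRNPA2B1 had a log2 fold change of -0.05 with an SE of 0.084, and its groups overlapped. HNRNPA1 and HNRNPC have many processed pseudogenes, and their counts are uncertain to the extent that reads were shared with those.

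At the lower doses edgeR called no difference between the formulas in these genes. No member was called between Sibjeondaebo-tang and Palmul-tang at 100 µg/mL, where 0.0311% of tested genes were, and none at 20 µg/mL, where 0 genes were called. The median log2 fold change of the 46 genes was -0.01 in both comparisons. RBM6 had 97.9, 112 and 94.7 CPM in Sibjeondaebo-tang medium libraries, against 105, 103 and 110.1 CPM in Palmul-tang medium libraries, and 107, 109 and 113 CPM in Sibjeondaebo-tang low libraries, against 118, 109 and 104 CPM in Palmul-tang low libraries. These groups overlapped at both doses. At an unadjusted p under 0.05 edgeR listed 1 member and 1015 genes at 100 µg/mL and 1 member and 338 genes at 20 µg/mL, and DESeq2 called no member at either dose.

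Within Sibjeondaebo-tang, 18 members were lower and 2 higher at the high dose than at the low dose, with 19.8% of all tested genes called (10.4% higher, 9.44% lower). Over all genes that balance, 1673 higher and 1518 lower, was 1189 and 1708 without mitochondrially encoded genes, where 1 member was higher and 19 were lower. The 2 that rose were HNRNPA1 (log2 fold change 0.16, SE 0.050, adjusted p = 0.0260) and HNRNPD (log2 fold change 0.20, SE 0.057, adjusted p = 0.0125), and each lost its call in at least 3 of the 6 fits without 1 library. PNISR fell most, to 53.8 ± 2.75 CPM in Sibjeondaebo-tang high, against 83.6 ± 2.41 CPM in Sibjeondaebo-tang low (SD, n = 3 each; log2 fold change -0.64, SE 0.062, adjusted p = 5.43e-09). RBM6 fell to 71.9 ± 6.91 CPM, against 109.6 ± 2.87 CPM at the low dose (log2 fold change -0.61, SE 0.059, adjusted p = 4.04e-09). Besides PNISR, 4 of 4 RBM proteins, 3 of 3 helicases, 4 SR proteins (SRSF5, SRSF6, SRSF10 and SRSF11), CLK1, CLK2, LUC7L3, SRRM2, HNRNPH1 and HNRNPDL fell. Of these, SRRM2 lost its call in 5 of the 6 fits without 1 library (adjusted p up to 0.121), SRSF10 in 3 (up to 0.0897) and DDX5 in 2 (up to 0.0854). Against the medium dose, 17 members were lower in Sibjeondaebo-tang high and none higher, where 11.1% of tested genes were called (5.04% higher, 6.07% lower). These were 810 higher and 976 lower with TMM and 564 higher and 1102 lower with median-ratio factors. The same 500 µg/mL dose of Palmul-tang gave a call in SRSF6 alone among the 46 relative to its low dose, where it was lower (log2 fold change -0.13, SE 0.040, adjusted p = 0.0488), where 6.78% of tested genes were called (3.75% higher, 3.03% lower), and this call ended in 5 of the 6 fits without 1 library. Samul-tang high against low called no member and 1.42% of tested genes (0.709% higher, 0.715% lower), with 2 members at an unadjusted p under 0.05 in edgeR and none called by DESeq2.

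The difference between the formulas in their dose response was tested directly, as high against low in Sibjeondaebo-tang minus high against low in Palmul-tang. It was called in 2.00% of tested genes, 0.0497% above 0 and 1.95% below 0, and in 6 members, all below 0. The 6 were RBM6 (-0.60 ± 0.083 SE on the log2 scale, adjusted p = 1.90e-05), PNISR (-0.55 ± 0.088, adjusted p = 1.50e-04), RBM39 (-0.38 ± 0.061, adjusted p = 2.36e-04), SRSF5 (-0.37 ± 0.069, adjusted p = 0.00173), CLK1 (-0.30 ± 0.080, adjusted p = 0.0362) and DDX39B (-0.30 ± 0.083, adjusted p = 0.0477). RBM6, PNISR, RBM39 and SRSF5 kept the call in every alternative run. CLK1 lost it in 8 and DDX39B in 9 of the 12 fits without 1 library, with adjusted p-values up to 0.148 and 0.135, and DDX39B had an adjusted p of 0.0514 with its readthrough row added.

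Over the Sibjeondaebo-tang doses, RBM6 had 82.2, 81.1 and 83.2 CPM in vehicle, 107, 109 and 113 CPM at the low dose, 97.9, 112 and 94.7 CPM at the medium dose and 79.7, 69.5 and 66.6 CPM at the high dose. It thus stood above vehicle at the low and medium doses and below every vehicle library at the high dose. PNISR had 61.5, 58.5 and 63.7 CPM in vehicle, 83.5, 81.2 and 86.1 CPM at the low dose, 75.2, 79.9 and 74.2 CPM at the medium dose and 56.0, 54.6 and 50.7 CPM at the high dose. RBM39 had 345, 343 and 365 CPM in vehicle, 418, 408 and 416 CPM at the low dose, 389, 394 and 369.9 CPM at the medium dose and 310.1, 301 and 277 CPM at the high dose. Both genes showed the pattern of RBM6, with the 3 high-dose libraries below all others. SRSF5 differed in that the lower doses were near vehicle, with 186, 192 and 199 CPM in vehicle, 184, 188 and 189 CPM at the low dose, 180.2, 189 and 184 CPM at the medium dose and 145, 144 and 138 CPM at the high dose. CLK1 had 54.2, 50.2 and 52.2 CPM in vehicle, 60.6, 60.2 and 59.9 CPM at the low dose, 58.3, 59.0 and 53.8 CPM at the medium dose and 50.9, 45.1 and 42.1 CPM at the high dose, and its high-dose libraries overlapped vehicle. DDX39B had 320.4, 339.9 and 351 CPM in vehicle, 423, 426 and 400.5 CPM at the low dose, 443, 425 and 409 CPM at the medium dose and 348, 327 and 321 CPM at the high dose, so its high-dose libraries lay in the range of vehicle.

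**Figure D3:**
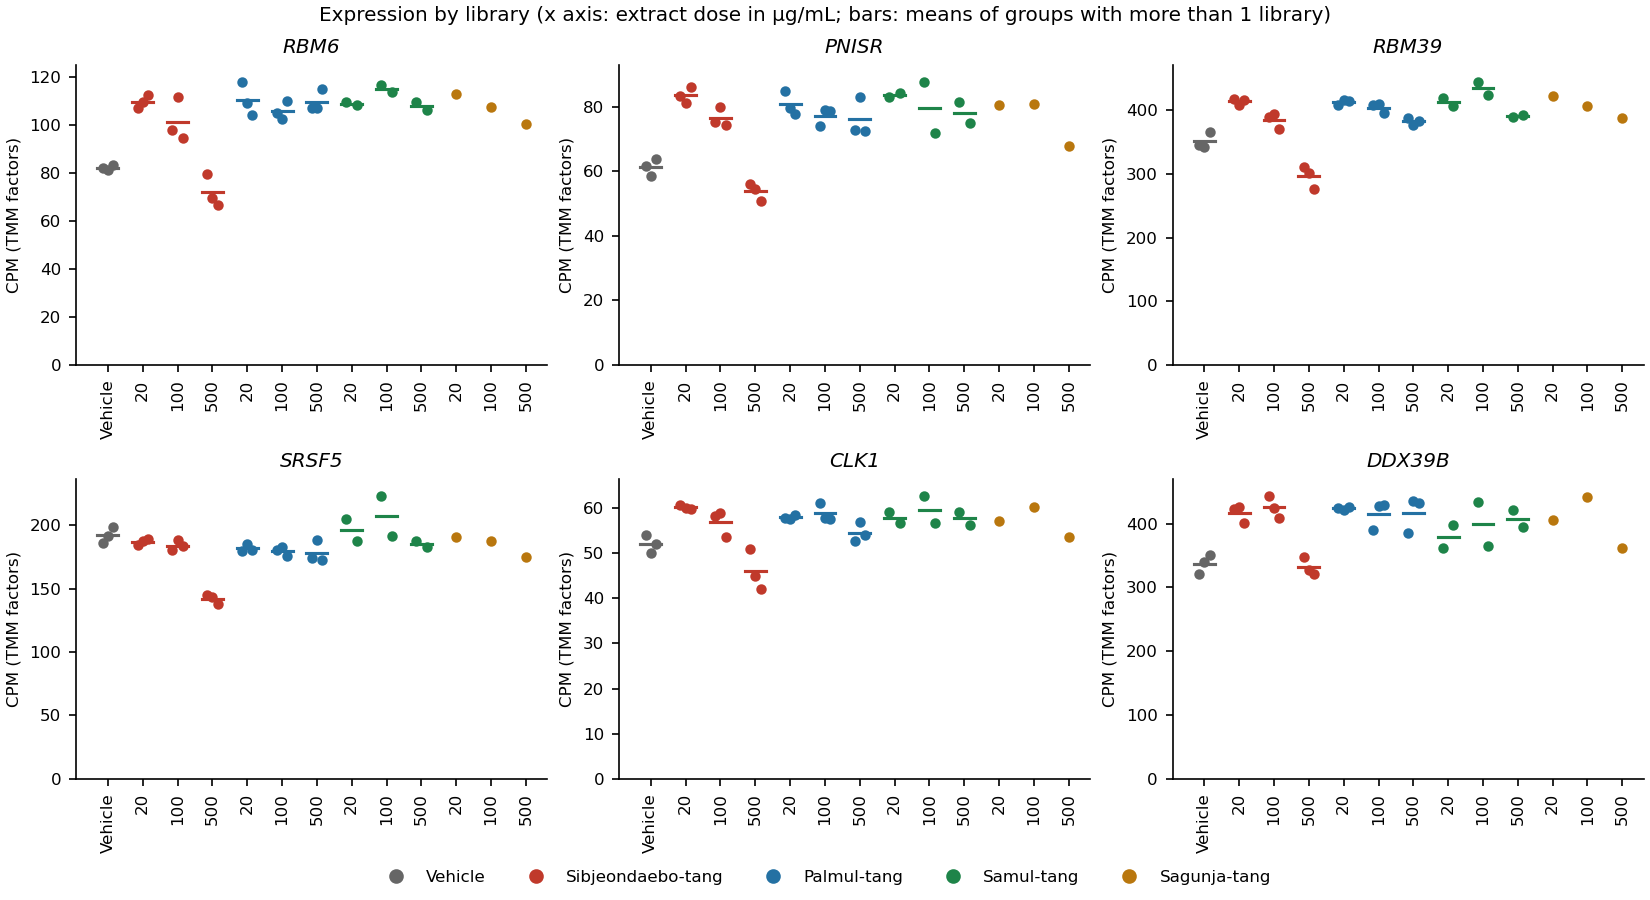
CPM with TMM factors (y axis, from 0) of the 6 genes whose dose response differed between Sibjeondaebo-tang and Palmul-tang, in each of the 30 libraries (points), by extract dose in µg/mL; bars are group means. In each panel the Sibjeondaebo-tang libraries at 500 µg/mL lie below those at 20 and 100 µg/mL, while the Palmul-tang libraries at 500 µg/mL stay near those at its lower doses.

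In Palmul-tang, RBM6 had 118, 109 and 104 CPM at the low dose, 105, 103 and 110.1 CPM at the medium dose and 107, 107 and 115 CPM at the high dose. In Samul-tang it had 109.6 and 108 CPM at the low dose, 117 and 114 CPM at the medium dose and 109 and 106 CPM at the high dose. The Sagunja-tang libraries, 1 per dose and so without a test, had 113, 107 and 100.5 CPM of RBM6 from low to high dose. In the same 3 libraries PNISR had 80.7, 80.9 and 67.9 CPM, and DDX39B had 405, 441 and 361 CPM. The high-dose Sagunja-tang library was the lowest of the 3 in each of these genes, and above all 3 Sibjeondaebo-tang high libraries.

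Relative to vehicle, more members were higher than lower in the other 8 replicated extract groups, while in Sibjeondaebo-tang high the order depended on the setting, with 15 higher and 13 lower with TMM, 14 and 14 with median-ratio factors and 11 and 14 with the GC and length offset. These comparisons share the 3 vehicle libraries. From low to high dose, Sibjeondaebo-tang had 21, 24 and 15 members higher and 2, 4 and 13 lower, where 23.0%, 30.2% and 36.0% of tested genes were called (11.5%, 15.3% and 19.3% higher, 11.5%, 14.8% and 16.7% lower). Palmul-tang had 21, 23 and 22 higher and 2, 1 and 4 lower, where 23.2%, 22.3% and 31.8% of tested genes were called (11.5%, 11.6% and 16.3% higher, 11.7%, 10.8% and 15.6% lower). Samul-tang had 16, 20 and 19 higher and 0, 0 and 1 lower, where 11.3%, 19.8% and 18.5% of tested genes were called (6.47%, 10.3% and 9.82% higher, 4.79%, 9.57% and 8.69% lower). Without Sibjeondaebo-tang high replicate 3, 16 members in all were called against vehicle at that dose. Samul-tang low had 9 without replicate 3 and 10 without replicate 2, Samul-tang medium 9 without replicate 2, and Samul-tang high 12 without replicate 2. When Samul-tang medium and vehicle were fitted alone, 4 members were called.

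Against vehicle, the 46 genes can be grouped by the direction of their calls. In 23 genes the calls were all higher, in 9 all lower, in 5 they were of both directions and in 9 there was none. The shares of all tested genes in these classes are not given here, and single comparisons called 11.3% to 36.0% of tested genes. Those single-comparison shares are not shares in these classes, so whether the class counts set the members apart was not tested. SRSF10, TRA2A, CLK3, CLK4 and LUC7L were higher than vehicle in all 9 replicated extract groups, a pattern held by 2.70% of tested genes, in comparisons that share the vehicle libraries. Each of the 5 lost a call in at least 1 fit without 1 library: SRSF10 (adjusted p = 0.0646), LUC7L (0.0781) and CLK4 (0.186) in Sibjeondaebo-tang high, and TRA2A (0.0632), CLK3 (0.0523) and CLK4 (0.0720) in Samul-tang low. CLK3 had 51.1 ± 3.49 CPM in Palmul-tang high, against 36.3 ± 1.25 CPM in vehicle (SD, n = 3 each; log2 fold change 0.49, SE 0.059, adjusted p = 1.80e-07). TRA2A had 53.9 ± 1.43 CPM in Sibjeondaebo-tang medium, against 40.3 ± 2.25 CPM in vehicle (log2 fold change 0.42, SE 0.052, adjusted p = 8.47e-07). SRSF10 had 182 ± 6.21 CPM in Palmul-tang low, against 137 ± 9.30 CPM in vehicle (log2 fold change 0.41, SE 0.053, adjusted p = 3.08e-06). LUC7L had means of 34.1, 34.5 and 34.1 CPM in the low-dose groups of Sibjeondaebo-tang, Palmul-tang and Samul-tang, against 27.2 CPM in vehicle.

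The 9 genes called lower and never higher were SRSF2, SRSF3, SRSF5, SRSF6, SRSF8, SRSF9, HNRNPDL, DDX5 and DDX17. SRSF3, an SR protein that also serves mRNA export, was lower in 7 of the 9 groups, with 235, 224 and 218 CPM in Sibjeondaebo-tang medium, against 297, 262 and 259 CPM in vehicle (log2 fold change -0.27, SE 0.055, adjusted p = 3.89e-04). Vehicle replicate 1 was the highest of all 30 libraries for SRSF3. The 5 genes with calls of both directions were CLK1, PNISR, RBM39, RBM6 and SRSF11, and in each the only lower call was in Sibjeondaebo-tang high. Without Sibjeondaebo-tang high replicate 3 that call ended in 4 of the 5: CLK1 (adjusted p = 0.0964), PNISR (0.0966), RBM6 (0.0779) and SRSF11 (0.0902). RBM6, PNISR, RBM39 and SRSF11 were higher than vehicle at 100 µg/mL of Sibjeondaebo-tang and lower than vehicle at 500 µg/mL, but none of the 4 kept both calls in every fit without 1 library. The medium-dose call ended in 4 of the 6 such fits for RBM39 (adjusted p up to 0.0938) and in 2 for SRSF11 (up to 0.0663). For RBM39 the means were 384 ± 12.8 CPM at the medium dose and 296 ± 17.3 CPM at the high dose, against 351 ± 12.6 CPM in vehicle. SRSF5 had the largest decrease against vehicle at the high dose (log2 fold change -0.43, SE 0.049, adjusted p = 5.25e-08), followed by SRSF6 (log2 fold change -0.30, SE 0.040, adjusted p = 6.05e-07). A further 7 genes, RBM5, RBM25, LUC7L3, SRSF4, HNRNPH1, CLK2 and DDX39B, were higher at the medium dose and not called at the high dose. The shares of all tested genes with these dose patterns are not given here either. SRSF4 lost the medium-dose call in 4 of the 6 fits without 1 library (adjusted p up to 0.197), and DDX39B with its readthrough row added was not called there (log2 fold change 0.12, adjusted p = 0.0582). The 9 genes with no call in any extract group were SRSF1, SRSF7, SRPK1, SON, HNRNPA2B1, HNRNPK, HNRNPM, HNRNPU and PTBP1.

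A retained-intron transcript is annotated for 40 of them (87.0%), against 57.1% of the 12821 tested protein-coding genes. Across all tested protein-coding genes, the share that was lower in Sibjeondaebo-tang high than in Palmul-tang high grew with the number of such transcripts. It was 2.25% of 5500 genes with none, 3.57% of 3834 genes with 1 to 2, 6.91% of 2418 genes with 3 to 5 and 14.7% of 1069 genes with 6 or more. The share that was higher ran the other way, at 2.36%, 2.30%, 1.86% and 0.748% of the same groups. Among the most highly expressed genes, those above the upper quartile of mean level, the shares lower were 1.69%, 2.44%, 4.13% and 10.5%, and among genes with 10 to 15 annotated transcripts they were 4.12%, 3.88%, 6.12% and 15.7%. Whether intron-retaining RNA itself changed was not tested, since the table holds counts per gene.

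**Figure D4:**
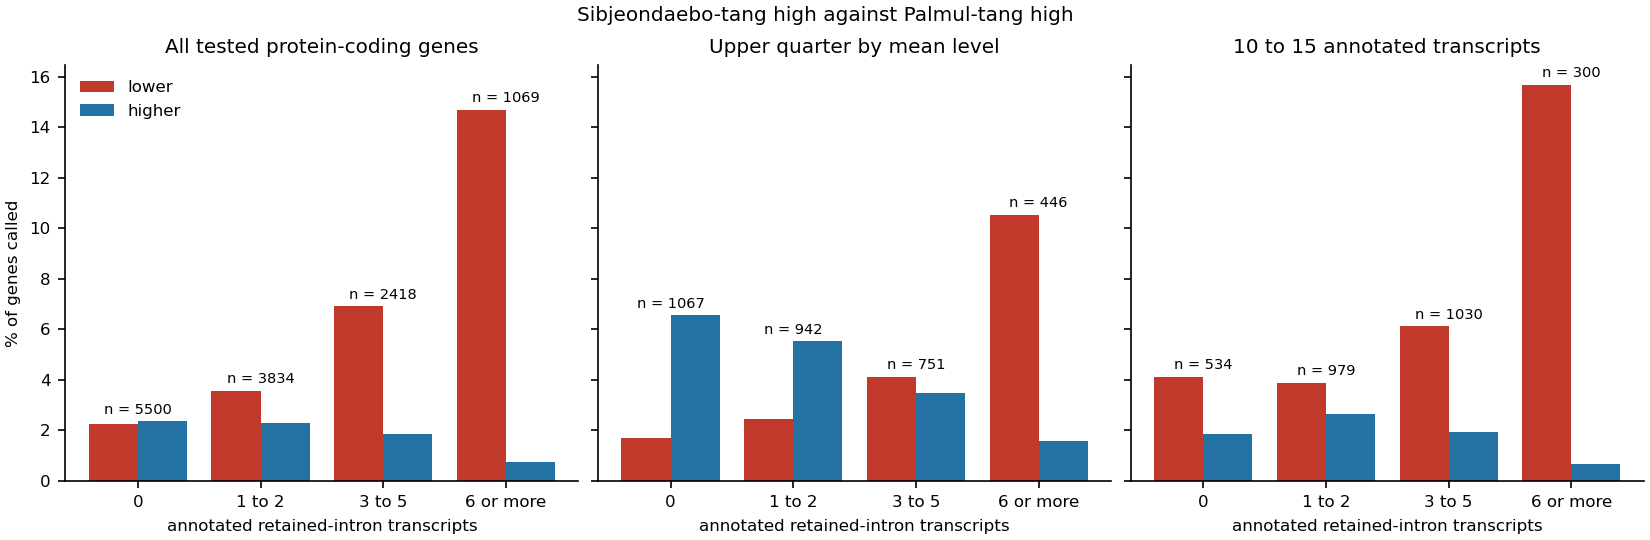
Percent of tested protein-coding genes called lower (red) or higher (blue) in Sibjeondaebo-tang high against Palmul-tang high (y axis, from 0), by the number of retained-intron transcripts annotated in GENCODE 29 (x axis), for all genes, genes above the upper quartile of mean level, and genes with 10 to 15 transcripts. The red bar is highest at 6 or more transcripts in each panel, at 14.7%, 10.5% and 15.7%.

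Within the 46 genes the same order was not seen. The genes lower in Sibjeondaebo-tang high were 4 of 6 with no annotated retained-intron transcript, 0 of 5 with 1 to 2, 5 of 18 with 3 to 5 and 8 of 17 with 6 or more. PNISR, SRSF6, SRSF11 and CLK2 were the 4 without one, while RBM39, RBM5 and HNRNPH1 have 16 each and DDX5 has 11. Spearman's rho between the number of retained-intron transcripts and the log2 fold change was -0.16 across the 46 genes, which are not independent replicates. For the number of all transcripts it was -0.21, and for the mean level 0.26. Median GC content was 45.0% in the transcripts of the 17 lower genes and 44.6% in those of the other 29, against 50.2% over tested protein-coding genes. When the fit carried a correction for GC content and length, 18 members were lower and none higher.

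The 5 tested genes whose mean levels over the 13 groups were most like those of RBM6 were PNN (Pearson's r = 0.984), GOLGA8A (0.961), RBM39 (0.957), ATAT1 (0.956) and LPIN3 (0.955). These values describe 13 group means that share their libraries' depth and scaling, and the median r over all tested genes was -0.04. Among the other members, PNISR (0.954), LUC7L3 (0.943), CLK2 (0.916), CLK1 (0.900), HNRNPH1 (0.883), RBM25 (0.869) and SRSF11 (0.863) came next after RBM39. At the other end were HNRNPK (-0.58), PTBP1 (-0.57) and SRSF9 (-0.53).

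The core spliceosome was measured beside these regulators. Of 26 tested proteins of the small nuclear ribonucleoproteins, none was called by edgeR between Sibjeondaebo-tang high and Palmul-tang high, with log2 fold changes from -0.14 to 0.15, a median of 0.06 and 7 genes at an unadjusted p under 0.05. In Sibjeondaebo-tang high against low, 11 of the 26 were higher and none lower with TMM, where 10.4% of all tested genes were higher. Of the regulators, 2 were higher and 18 were lower there. Over all genes, the higher calls there depended on the scaling. They numbered 1673 with TMM, 1261 with median-ratio factors and 1189 without mitochondrially encoded genes. Whether the 11 calls held under the other settings is not given here. Of 18 further hnRNPs, 1 was lower in Sibjeondaebo-tang high than in Palmul-tang high: PTBP2, the neuronal relative of PTBP1, with 9.11 ± 0.899 CPM in Sibjeondaebo-tang high and 11.4 ± 1.07 CPM in Palmul-tang high (SD, n = 3 each; log2 fold change -0.33, SE 0.081, adjusted p = 0.0101). Among all tested genes 4.72% were lower in that comparison, so 1 of 18 is near the share over all genes.

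Of 27 further splicing regulators, 6 were lower and 1 was higher in Sibjeondaebo-tang high than in Palmul-tang high. Among all tested genes 4.72% were lower and 1.75% higher, the shares to set beside each list in this paragraph. PNN, pinin, the speckle protein to which PNISR binds, had 374 ± 41.6 CPM in Sibjeondaebo-tang high and 506 ± 26.6 CPM in Palmul-tang high (log2 fold change -0.44, SE 0.073, adjusted p = 1.80e-04). SREK1, an SR-related regulator, was lower as well (log2 fold change -0.28, SE 0.057, adjusted p = 0.00135), and so was ZRANB2, a zinc finger protein that binds 5′ splice sites (log2 fold change -0.27, SE 0.064, adjusted p = 0.00692). The 1 that was higher was QKI, a KH-domain protein and regulator of exon inclusion (log2 fold change 0.23, SE 0.056, adjusted p = 0.0101), named because it was the only one. Of 10 further kinases of splicing factors, PRPF4B was lower (log2 fold change -0.17, SE 0.052, adjusted p = 0.0375) and the others were not called. Of 14 factors of nonsense-mediated decay, which degrades poison-exon RNAs, 2 were lower: SMG1, the kinase of UPF1 (log2 fold change -0.22, SE 0.060, adjusted p = 0.0228), and UPF2 (log2 fold change -0.17, SE 0.048, adjusted p = 0.0263).

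Relative to Palmul-tang high, the nuclear noncoding RNAs NEAT1 and MALAT1 differed in opposite directions. NEAT1, the scaffold of paraspeckles, had 143, 137 and 122 CPM in Sibjeondaebo-tang high libraries, against 249, 247 and 247 CPM in Palmul-tang high libraries (log2 fold change -0.89, SE 0.052, adjusted p = 2.85e-13). MALAT1, a resident of nuclear speckles, had 336, 288 and 327 CPM in Sibjeondaebo-tang high libraries, against 271, 259 and 287 CPM in Palmul-tang high libraries (log2 fold change 0.22, SE 0.061, adjusted p = 0.0237). The NEAT1 groups stood far apart, while the MALAT1 groups were separated by less than 1 CPM. Vehicle libraries, whose names carry another prefix, had 294 to 313 CPM of NEAT1 and 391 to 426 CPM of MALAT1. For both RNAs these values lay above both high-dose groups. Of 10 host transcripts of small nucleolar RNAs, which are themselves targets of nonsense-mediated decay, SNHG12 (log2 fold change -0.61, SE 0.082, adjusted p = 4.40e-06) and SNHG1 (log2 fold change -0.36, SE 0.072, adjusted p = 0.00164) were lower and the others were not called, where 4.72% of all tested genes were lower.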

How the data were processed

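RNA was sequenced from 30 HepG2 libraries with a directional kit and paired reads of 100 bases, per the labels' protocols. The submitters' processing notes name FastQC 0.11.9, Trim Galore 0.6.5, STAR 2.7.3a, RSEM 1.3.3 and hg38; neither annotation release nor strand setting is stated there. The authors deposited RSEM expected counts per gene for 60675 rows, of which 8.56% of values were not whole (tolerance 1e-06), and these were rounded. A further 240 columns in the deposited table belong to no sample here and were not read. Symbols matched 56558 rows, and GENCODE 29 held 57055.

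All 27 libraries of the 10 replicated groups entered a single edgeR 4.0.16 quasi-likelihood fit (R 4.3.3; TMM factors, filterByExpr with minimums of 10 and 15 counts, robust, 17 residual degrees of freedom). A call is a Benjamini-Hochberg adjusted p under 0.05 over 16083 genes. The biological coefficient of variation was 5.47%. The log2 fold changes were computed from the deposited expected counts, as the first-named group over the second. Sagunja-tang, with 1 library per dose, entered no test. The test of Sibjeondaebo-tang high against Palmul-tang high was checked on simulated data with 50 seeded genes per size of change. It recovered 70% of genes changed 1.3-fold, 88% at 1.5-fold and 98% at 2-fold and at 3-fold. Of 15648 unchanged genes, 9 were called. Smaller changes were not simulated, and most member differences were smaller than 1.3-fold, so the check does not cover them. Per-library values are given for up to 3 members per family with the smallest adjusted p in the high-dose comparison of Sibjeondaebo-tang with Palmul-tang, and for members called in the difference between dose responses; up to 3 called genes are named from each further list. The members and lists were chosen with earlier results of these data known. Alternatives were DESeq2 1.42.0, median-ratio factors, no filter, the compared groups alone, a replicate block, an offset for GC content and length, leaving out mitochondrially encoded genes and leaving out each library. Adding copy and readthrough rows to 3 members was chosen after seeing the data. The replicate number is also the middle number of the sample name. Same-numbered libraries deviated together little (44 correlations from -0.17 to 0.108), so numbers were not taken to pair them. The labels give 0.1% DMSO for vehicle and the design text gives 2%. Figures were drawn with matplotlib 3.10.9.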

Additional observations from a re-analysis of the deposited data

Results flagged for a closer look

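In 6 members the dose response differed between the formulas by a direct test, high against low in Sibjeondaebo-tang minus high against low in Palmul-tang. On the log2 scale the differences were -0.60 for RBM6, -0.55 for PNISR, -0.38 for RBM39, -0.37 for SRSF5, -0.30 for CLK1 and -0.30 for DDX39B, among 2.00% of tested genes called. RBM6, PNISR, RBM39 and SRSF5 kept the call in all 12 fits without 1 library, whereas CLK1 lost it in 8 and DDX39B in 9. DDX39B was also not called with its readthrough row added (adjusted p = 0.0514). In RBM6 all 3 Sibjeondaebo-tang high libraries lay below all Sibjeondaebo-tang low libraries, with means of 71.9 CPM at the high dose and 109.6 CPM at the low dose, while Palmul-tang had 109.6 CPM at the high dose and 110.4 CPM at the low dose. Mitochondrially encoded genes took 17.2% to 19.4% of counts in Sibjeondaebo-tang high and 14.9% to 16.9% in Palmul-tang high, and without these genes 10 members were called in place of 6.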

How the results depend on the processing

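No member's call reversed under any alternative. For single genes outside the member list the alternatives are not given here, so calls in the further lists have no such check beside them. In Sibjeondaebo-tang high against Palmul-tang high, 14 of 17 member calls held in every fit without 1 library, and 16 held in the other alternatives, with U2AF1 lost. With a replicate block, that comparison called 1140 genes and 16 members. The labels do not say whether replicate numbers pair the samples. In Sibjeondaebo-tang high against medium 6 of 6 libraries correlated best with their own number. It was 4 of 6 in Sibjeondaebo-tang high against low, Sibjeondaebo-tang medium against Palmul-tang medium and Palmul-tang medium against vehicle. In the other comparisons with 3 libraries per group it was 0 or 1 of 6. Counts of genes moved by over 1.5 times in Sibjeondaebo-tang medium against Palmul-tang medium (5; 168 with no filter, 26 with the replicate block, 25 with DESeq2), at the low dose (0; 72 with no filter, 3 with the groups alone), in Samul-tang high against low (229; 376 with no filter), in Samul-tang medium against vehicle (3188; 261 with the groups alone) and in the difference between dose responses (322; 562 with no filter). Member counts moved in Palmul-tang high against low (1; 0 with the GC and length offset, 3 with DESeq2), Samul-tang medium against vehicle (20; 4 with the groups alone) and the difference between dose responses (6; 10 with no filter, without mitochondrially encoded genes or with the groups alone, 13 with DESeq2). The cause was not tested.

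Without 1 library each, called genes and members ranged as follows. Sibjeondaebo-tang against Palmul-tang gave 545 to 925 and 14 to 17 at the high dose, and 2 to 30 genes at the medium dose. Sibjeondaebo-tang high gave 2042 to 2582 and 15 to 20 against low, and 1053 to 1540 and 14 to 16 against medium. Palmul-tang high against low gave 702 to 827 and 0 to 1, and Samul-tang high against low gave 85 to 108 genes. Against vehicle, from low to high dose, Sibjeondaebo-tang gave 2284 to 3156 and 18 to 22, 3474 to 4487 and 21 to 23, and 4305 to 5126 and 16 to 26. Palmul-tang gave 2392 to 3187 and 19 to 22, 2309 to 3424 and 18 to 23, and 3798 to 4612 and 20 to 25. Samul-tang gave 604 to 1436 and 9 to 17, 747 to 4675 and 9 to 28, and 1300 to 2387 and 12 to 18. The difference between dose responses gave 211 to 380 and 4 to 10, with 10 members without Sibjeondaebo-tang high replicate 1. Counts per gene, 2 or 3 libraries per group and a vehicle group whose sample names carry another prefix, of unknown meaning, limit these comparisons.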
